A study of Mus musculus with 12 samples.

Results

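The histone-modifying enzymes described here are the genes whose symbol starts with Hdac, Sirt, Kdm, Kmt or Setd followed by a digit. They were taken as every probe set of the array whose annotation names exactly 1 gene with such a symbol, which gave 126 probe sets of 52 genes, out of 45037 probe sets for 18193 named genes. By class these were 19 probe sets of 11 Hdac deacetylases, 9 of 7 sirtuins, 55 of 18 Kdm demethylases and 43 of 16 Kmt and Setd methyltransferases. The transcripts were measured on Affymetrix arrays in dendritic cells (DC) that were grown out of marrow taken from C57BL/6 mice, which carry no engineered allele. Marrow cells were kept for 6 days in 10 ng/ml of GM-CSF, the cytokine that turns marrow precursors into DC, and were then treated with 2.5 µg/ml of poly(I:C), an artificial RNA duplex that stands in for a virus, as the sample labels give it. The labels give the mice as 8 to 10 weeks old in one field and 3 to 4 months old in another, and the study's methods give higher amounts of both reagents, female mice and a selection on CD11c. Arrays were run at 1, 3, 6, 12 and 24 h after poly(I:C) and at 0 h, in 2 experiments of 1 mouse each, so that n = 2 at every time and every mouse has 1 array at each of the 6 times. No array after 0 h came from cells kept without poly(I:C), so time after poly(I:C) and time in culture cannot be told apart.

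DNA in the nucleus is wound around histones, and chemical groups on the histone tails help to set which genes can be read. Acetyl groups loosen this packing and are removed by zinc-dependent deacetylases (Hdac) and by sirtuins (Sirt), which use NAD and in several cases act outside the nucleus. Methyl groups on lysine are added by enzymes with a SET domain (most Kmt and Setd members) and removed by the Kdm enzymes, and their meaning depends on the lysine that carries them. In DC and macrophages these enzymes take part in switching inflammatory and antiviral genes on and off after a microbial signal.

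Of the 126 probe sets, 91 from 48 genes were bright enough to be tested, with a mean signal over the 12 arrays at or above the array median of 78.4. The other 35 had means of 5.66 to 76.9. The dimmest tested member had a mean of 83.7 and the brightest untested one 76.9. Hdac9, with 2 probe sets, Kdm4d and Kdm8, with 1 each, and Kdm5d, with 3, had none tested. Kdm5d is a Y-linked gene, and its signals lay between 1.61 and 76.8 on all arrays. Signals are MAS values on a linear scale, with every array scaled to the same trimmed mean of 500, and compare one probe set between arrays, not one gene with another. Fold changes are log2 differences of the signal plus 16, estimated over both experiments, and a probe set is said to have risen or fallen when its limma p value, adjusted over all 22519 probe sets tested, was under 0.05.

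Of the markers of the labelled cell type, DC, 11 of 12 were bright enough to be tested, Flt3 being too dim. The macrophage markers were tested as well, 6 of 6. Passing this limit therefore does not tell DC from macrophages, which share most of these markers. Markers of B, T and NK cells and of mast cells and basophils were all under the limit for testing (0 of 3, 0 of 4, 0 of 2 and 0 of 5). The summed DC marker signal was 161785 and 165637 at 24 h, 163271 and 165706 at 12 h, against 111781 and 126030 at 0 h. Of the single DC markers, Ccr7, Cd86 and H2-Aa rose at both late times. Irf4 fell at 24 h (log2 fold change −1.76, limma adjusted p = 0.0131), and the other tested ones were not called at either time. The macrophage sum was higher late as well, 67160 to 74743 at 24 h and 66181 to 77936 at 12 h, against 42227 to 54254 at 0 h. The single macrophage markers were mixed. Cd68, Fcgr1 and Mertk rose at both late times, Mrc1 fell at 24 h (log2 fold change −2.92, limma adjusted p = 0.00145), and Adgre1 and Csf1r were not called. Of the neutrophil markers 2 of 7 were tested, with a summed signal of 1737 to 3739 at 24 h against 2601 to 2796 at 0 h. The summed signal of 4 stromal markers was 308 to 347 at 24 h and 396 to 3166 at 12 h, against 240 to 275 at 0 h, the high value being that of experiment 1. Nearly all of that value came from Vcam1 (2955), the only stromal marker called. On the same array Col1a2 gave 132.7, and Col1a1 (60.9) and Pdgfrb (17.6) were too dim to be tested. In bulk RNA, fewer cells of a type and less RNA per cell cannot be told apart. The CD11c selection that the study's methods describe, before treatment, would remove cells without CD11c. The part of other cells in the results was not tested.

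Promoter windows of 300 bases around the start of each gene were held by RefSeq (GRCm38.p6) for 41 of the 52 genes, in 57 windows. They were rich in CpG, the dinucleotide that marks the promoters of widely used genes, with a median of 22 CpG per window against 7 over all 32851 windows. Of 3 motifs tied to antiviral and inflammatory signalling, 2 were less common in them than in all windows and 1 was more common, with no test made. The core of the interferon-stimulated response element (GAAANNGAA, both strands) was in 1 of 57 windows (1.8%, Hdac9), against 8.6% of all windows. The kappa B core (GGANTTTCC, both strands) was in 0 of 57, against 1.3% of all. The gamma-activated site (TTCNNNGAA, both strands, which may overlap the first motif) was in 6 windows of 5 genes (10.5%; Hdac7, Kdm3a, Kmt2d, Setd7 and Sirt7), against 8.3% of all. A match of letters is not a site, and a window without one says nothing of the factor.

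The windows of the 3 genes with the clearest rises, Setd4, Sirt2 and Sirt3, are shown. None of them holds any of the 3 motifs as spelled above, and other spellings of these motifs were not searched. Each is written 5′ to 3′ on the strand of the gene with its CpG in capitals, and they lie at chr16:93603766-93604065 (minus strand, Setd4, 29 CpG), chr7:28766502-28766801 (plus strand, Sirt2, 16 CpG) and chr7:140882260-140882559 (minus strand, the first of 2 starts of Sirt3, 23 CpG).
Setd4: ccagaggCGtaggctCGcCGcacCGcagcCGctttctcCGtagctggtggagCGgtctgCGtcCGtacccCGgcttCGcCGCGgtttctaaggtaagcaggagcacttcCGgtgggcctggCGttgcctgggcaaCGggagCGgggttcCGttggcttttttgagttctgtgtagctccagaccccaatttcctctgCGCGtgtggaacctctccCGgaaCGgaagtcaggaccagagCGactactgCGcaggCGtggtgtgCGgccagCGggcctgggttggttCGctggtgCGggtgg
Sirt2: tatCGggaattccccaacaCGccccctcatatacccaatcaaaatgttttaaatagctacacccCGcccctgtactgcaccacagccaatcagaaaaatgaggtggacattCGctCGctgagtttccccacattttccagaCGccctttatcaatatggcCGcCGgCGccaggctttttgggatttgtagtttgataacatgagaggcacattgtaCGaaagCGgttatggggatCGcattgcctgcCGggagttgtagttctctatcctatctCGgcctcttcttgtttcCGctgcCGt
Sirt3: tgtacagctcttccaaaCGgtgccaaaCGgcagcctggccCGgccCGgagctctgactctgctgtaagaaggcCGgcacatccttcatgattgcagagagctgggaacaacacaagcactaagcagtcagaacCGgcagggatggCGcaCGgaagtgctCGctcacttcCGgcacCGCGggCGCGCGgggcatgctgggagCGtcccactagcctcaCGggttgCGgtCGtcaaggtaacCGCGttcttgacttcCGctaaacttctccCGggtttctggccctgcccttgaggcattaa
The only match among the sirtuins that rose was a TTCTTTGAA in the window of Sirt7 (chr11:120624965-120625264, minus strand).

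The histone-modifying enzymes changed late, as did the tested probe sets of the array at large. Of their 91 tested probe sets, 17 were called at 12 h and 16 at 24 h, smaller shares than those of all tested probe sets. No member was called at 1 h, where 0.0533% of all tested probe sets were called higher and 0% lower, or at 3 h, where these shares were 1.01% and 0.0444%. At an unadjusted limma p under 0.05 there were 1 higher and 0 lower members at 1 h, while 3 h had 2 higher and 6 lower. At 6 h 0 members were called higher, against 3.62% of all tested probe sets, and 1 lower (1.1%), against 1.95%. At 12 h 5 were called higher (5.49%), against 9.32% of all, and 12 lower (13.2%), against 18.7%. At 24 h 6 were called higher (6.59%), against 9.23% of all, and 10 lower (11%), against 17.5%.

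The median log2 fold change of the tested members was −0.23 at 12 h, the same as over all tested probe sets, and −0.23 at 24 h against −0.19 over all. The array scaling bears on these counts, since the median of all tested probe sets was itself shifted. With each array centred on its median the members called at 12 h were 12 higher and 6 lower, and at 24 h 11 higher and 4 lower, and of all calls 59.6% were then higher at 12 h and 55.1% at 24 h, against 33.3% and 34.6% as deposited. None of the 38 calls on single members turned its sign under any alternative, and 8 of them passed in all.

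**Figure D1:**
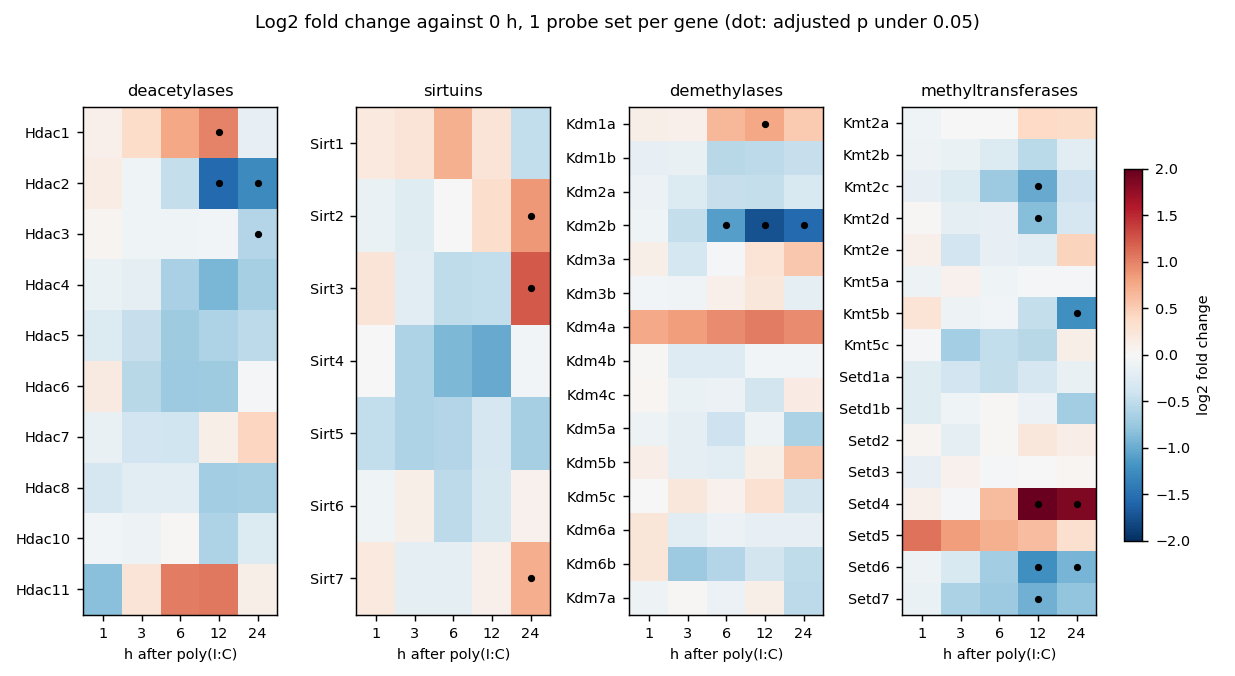
Change on the log2 scale relative to 0 h in the 48 genes tested, 1 probe set per gene (its brightest), by class and by hours after poly(I:C). Red is higher than at 0 h and blue lower, and a dot marks an adjusted p under 0.05. The first dot is that of Kdm2b at 6 h, and the strongest colours are those of Setd4 (1.98 at 12 h) and Kdm2b (−1.75 at 12 h).

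**Figure D2:**
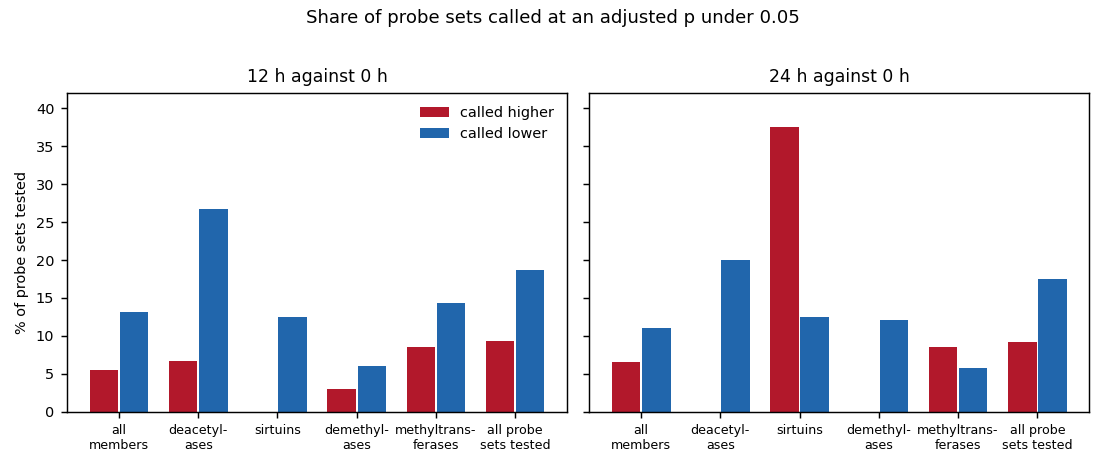
Share of tested probe sets called higher (red) and lower (blue) at 12 h and 24 h against 0 h, for all 91 members, for each class and for all 22519 probe sets tested. At 24 h 3 of 8 sirtuin probe sets (37.5%) were called higher, beside 9.23% of all probe sets tested, a difference for which no test was made.

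Over all 91 tested members, called or not, the change against 0 h had the same direction in both experiments for 73 at 12 h and 62 at 24 h, and for 43 of 91 in the change of 24 h against 12 h. The called members were chosen on these same experiments, so their own agreement is no separate evidence. The 24 h signals lay wholly apart from the 0 h signals for 35 of the 91, and those of 12 h for 37. The experiments were less alike at 24 h, where the median absolute difference between their log2 ratios was 0.52 over the 91 members, against 0.22 at 1 h. Of 23 genes with several tested probe sets, 17 had all of them on one side of 0 at 12 h and 14 at 24 h.

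The deacetylases moved apart from each other. Hdac2 fell strongly, Hdac1 rose for a time, Hdac3 was lower at 24 h, and the class had 1 of 15 probe sets called higher (6.67%) and 4 lower (26.7%) at 12 h, beside 9.32% and 18.7% of all tested probe sets. At 24 h these counts were 0 and 3 (20%), beside 9.23% and 17.5% of all. The lower probe sets came from 2 genes at each time, Hdac2 and Hdac4 at 12 h and Hdac2 and Hdac3 at 24 h. By 1 probe set per gene, 1 of 10 genes was called lower at 12 h and 2 of 10 at 24 h. The class median was −0.70 at 12 h and −0.58 at 24 h. Hdac1 and Hdac2 are closely related class I enzymes that sit together in the Sin3, NuRD and CoREST repressor complexes, so their opposite course is described in full.

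The 6 signals of Hdac1, at 0 h and the 5 later times, were 3472, 3404, 4641, 6030, 7965 and 3797 in experiment 1 and 2740, 3197, 3375, 4697, 4739 and 2001 in experiment 2. The signal climbed from 1 h to 12 h in both experiments, and the 12 h and 0 h signals did not overlap. At 24 h it was close to its start in experiment 1 and under it in experiment 2. Hdac1 was 1.99-fold higher at 12 h than at 0 h (log2 fold change 0.99, SE 0.2, adjusted p = 0.00525), while its 6 h value (log2 fold change 0.78, SE 0.2, adjusted p = 0.0502) just missed the threshold. At 24 h it did not differ detectably from 0 h (log2 fold change −0.16, SE 0.2, adjusted p = 0.601), and it was lower at 24 h than at 12 h (log2 fold change −1.15, SE 0.2, adjusted p = 0.0198). The 12 h call did not hold without the 0 h or the 12 h array of experiment 1 (adjusted p = 0.0574 and 0.0572), nor without the replicate block (0.0946). The fall between 12 h and 24 h was not called without the 12 h array of experiment 1 or of experiment 2 (adjusted p = 0.137 and 0.0644), nor without the replicate block (0.26).

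In experiment 1, Hdac2, by its brightest probe set, read 1353, 1524, 1294, 937, 446 and 449 at 0 h and the 5 later times, and in experiment 2 it read 1147, 1249, 1061, 856, 389 and 569. Both experiments held their level to 3 h and then dropped, and every 12 h and 24 h signal lay far under both 0 h signals. Hdac2 fell at 12 h, by 2.93-fold (log2 fold change −1.55, SE 0.2, adjusted p = 0.000457), and at 24 h, by 2.43-fold (log2 fold change −1.28, SE 0.2, adjusted p = 0.00143). A second probe set gave 295 and 299.9 at 24 h and 275 and 268 at 12 h, against 739 and 632 at 0 h. It fell as well, with a log2 fold change of −1.28 (SE 0.21, adjusted p = 0.0017) at 12 h and −1.16 (SE 0.21, adjusted p = 0.00309) at 24 h. The third, much dimmer, probe set had values in the same direction (−0.78 and −0.61) that were not called. The calls on the brightest probe set passed in every alternative tried, and that of the second at 24 h was lost only in a fit of the 4 arrays alone (adjusted p = 0.0677).

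Hdac3, the catalytic part of the NCoR and SMRT corepressor complexes, had signals of 964, 959.6, 923, 894, 866 and 697 at 0 h and the 5 later times in experiment 1, and of 967, 1061, 901, 914, 995 and 586 in experiment 2. The signals were flat to 12 h, and both 24 h arrays lay under all the others. The 24 h change was a log2 fold change of −0.58, SE 0.18, adjusted p = 0.0367. It was the least secure of the deacetylase calls, being lost without any one of 9 of the 12 arrays (both arrays of 0, 1, 3 and 6 h, and the 24 h array of experiment 2), with adjusted p up to 0.165, and with the arrays centred on their median (log2 fold change −0.34, adjusted p = 0.182) or without the replicate block (0.0886). Hdac8, the remaining class I enzyme, had a log2 fold change of −0.70, SE 0.33, adjusted p = 0.141 at 12 h and was not called.

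The class IIa enzymes (Hdac4, Hdac5, Hdac7 and Hdac9) shuttle between nucleus and cytoplasm and have little catalytic activity of their own. Hdac4 was called through its 2 dimmer probe sets and not its brightest. The more secure of them gave 76.0 and 108 at 12 h against 287 and 288 at 0 h, a log2 fold change of −1.51 (SE 0.37, adjusted p = 0.0125), which was not called without either 0 h array or the 12 h array of experiment 1 (adjusted p up to 0.104). The other gave 142 and 20.4 at 12 h against 246 and 188 at 0 h (log2 fold change −1.61, SE 0.51, adjusted p = 0.0398), and without the 12 h array of experiment 2 its log2 fold change was −0.67 (adjusted p = 0.339). Leaving out either array of 0, 1 or 3 h also ended that call (adjusted p up to 0.184), as did the fit without the replicate block (0.116). The brightest probe set had a log2 fold change of −0.91, SE 0.33, adjusted p = 0.0623 at 12 h. Hdac5 (−0.62 at 12 h) and Hdac7, whose 2 probe sets had 0.11 and 0.61, were not called.

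In class IIb, Hdac6, best known as the deacetylase of tubulin, had 254 in experiment 1 and 38.6 in experiment 2 at 24 h, against 143 and 82.9 at 0 h, and Hdac10, with 1 of its 2 probe sets tested, had −0.62 at 12 h. Neither was called. Hdac11, the only class IV enzyme and a known regulator of interleukin-10 in mouse antigen-presenting cells, was measured by 1 tested probe set of 2. Hdac11 gave signals of 47.2, 45.8, 89.4, 123, 169.6 and 98.0 in experiment 1 and 178, 45.6, 148, 351, 271 and 110.1 in experiment 2, at 0 h and then at 1, 3, 6, 12 and 24 h. The experiments were far apart at 0 h, and its 12 h log2 fold change of 1.06, SE 0.43, adjusted p = 0.093 missed the threshold but was called with centred arrays or quantile normalisation.

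**Figure D3:**
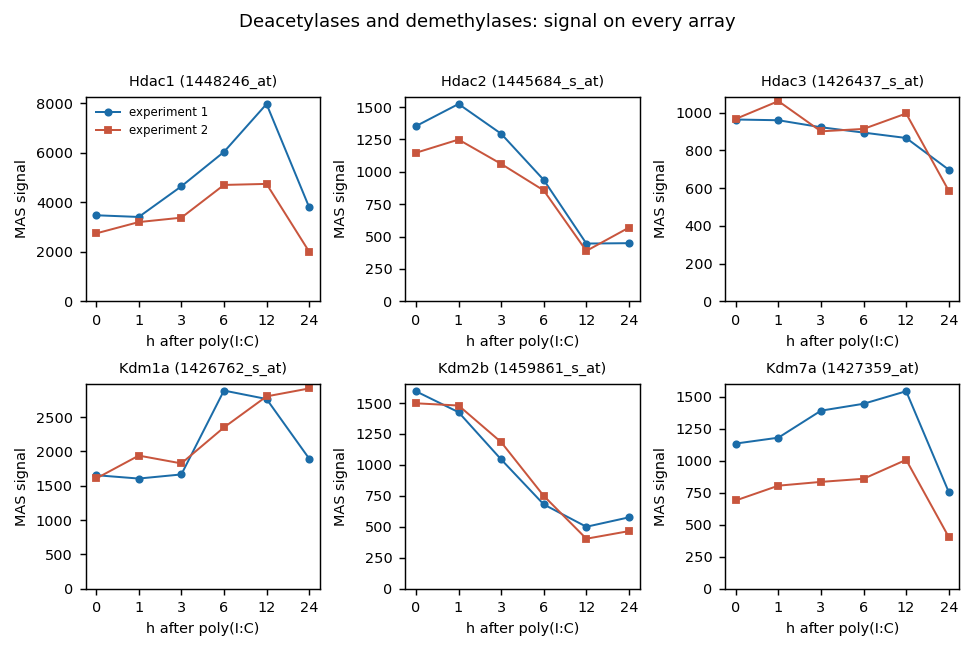
MAS signal on each of the 12 arrays (linear axis from 0) of Hdac1, Hdac2, Hdac3, Kdm1a, Kdm2b and Kdm7a against hours after poly(I:C), with a line per experiment. Hdac1 peaks at 12 h (7965 and 4739) while Hdac2 is lowest there (446 and 389), and Kdm2b declines to 12 h in both experiments.

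Of the 7 sirtuins, 3 were called higher at 24 h (37.5% of their 8 probe sets, beside 9.23% of all tested) and 0 at the earlier times. Without the 0 h array of experiment 2, or in a fit of the 4 arrays alone, 0 were called higher at 24 h. Sirt2, Sirt3 and Sirt7 rose, 1 of 8 probe sets was called lower (Sirt5), and at 12 h the class had 0 called higher and 1 lower. The 3 that rose act in different places, Sirt2 mainly in the cytoplasm, Sirt3 in mitochondria and Sirt7 in the nucleolus.

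Sirt2 removes acetyl groups from tubulin and, in the nucleus, from histones. In experiment 1, Sirt2 read 2097, 1804, 1743, 1988, 2383 and 3345 at 0 h and the 5 later times, and in experiment 2 it read 2239, 2128, 1927, 2362, 3208 and 4633. Both experiments climbed after 3 h, and their 24 h signals were the highest of the course. The 24 h change was 1.82-fold higher (log2 fold change 0.86, SE 0.16, adjusted p = 0.00377). It was not called without the 0 h array of experiment 2 (log2 fold change 0.75, adjusted p = 0.0542), or in a fit of the 4 arrays alone (adjusted p = 0.123).

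Sirt3, the main protein deacetylase of mitochondria, had signals of 237, 242, 180.4, 162, 151 and 479.7 at 0 h and the 5 later times in experiment 1, and of 220.1, 311, 209.7, 149, 164 and 649 in experiment 2. In both experiments the signal was lowest at 6 h or 12 h and then lay over every earlier signal at 24 h. Sirt3 was 2.35-fold higher at 24 h than at 0 h (log2 fold change 1.23, SE 0.24, adjusted p = 0.00447) and 3.32-fold higher than at 12 h (log2 fold change 1.73, SE 0.24, adjusted p = 0.00829). The change against 0 h was not called without the 0 h array of experiment 2 (adjusted p = 0.0577), and that against 12 h without either 12 h array (adjusted p = 0.0654 and 0.0523) or without the replicate block (0.0848).

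Sirt7 works in the nucleolus and deacetylates histone H3 at some promoters. The 6 signals of Sirt7, at 0 h and the 5 later times, were 1891, 2318, 1591, 1804, 2289 and 4134 in experiment 1 and 1925, 2067, 1764, 1535, 1842 and 2404 in experiment 2. The 24 h signal was the highest of the course in both experiments but the change differed in size, with log2 ratios of 1.12 in experiment 1 and 0.32 in experiment 2. The joint change was a log2 fold change of 0.72, SE 0.22, adjusted p = 0.0325. Leaving out the 24 h array of experiment 1 gave 0.38 (adjusted p = 0.116), and leaving out either array of 0, 1 or 6 h also ended the call (adjusted p up to 0.213). It was not called without the replicate block either (0.112).

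Sirt5, a mitochondrial enzyme that removes succinyl and malonyl groups, fell by its dimmer tested probe set only. That probe set had signals of 229, 219.9, 213, 93.3, 98.4 and 134 at 0 h and the 5 later times in experiment 1, and of 198, 209, 187, 129, 35.5 and 29.0 in experiment 2. From 6 h on both experiments were under their 0 h level. It was 2.99-fold lower at 12 h (log2 fold change −1.58, SE 0.48, adjusted p = 0.0323) and 2.79-fold lower at 24 h (log2 fold change −1.48, SE 0.48, adjusted p = 0.0429). The 12 h call ended without either 0 h or either 12 h array (adjusted p up to 0.215). The 24 h call ended without any one of 8 arrays (both of 0, 1 and 3 h, the 12 h array of experiment 1 and the 24 h array of experiment 2), with a log2 fold change of −0.73 (adjusted p = 0.263) without the last of these. Neither call held without the replicate block (adjusted p = 0.0962 and 0.123). The brighter probe set, with 156 and 162 at 24 h against 286 and 235 at 0 h, had a log2 fold change of −0.66, SE 0.3, adjusted p = 0.13, and the other probe set was too dim to test.

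Sirt1, the nuclear sirtuin that deacetylates p53 and NF-kB as well as histones, was not called. Sirt1 had signals of 681, 792, 950.2, 1260, 951 and 510.1 at 0 h and the 5 later times in experiment 1, and of 387, 435, 399, 569, 396 and 251 in experiment 2. In both experiments the signal peaked at 6 h and was lowest at 24 h. Its log2 fold change was 0.71 (SE 0.2, adjusted p = 0.0693) at 6 h and −0.50 (SE 0.2, adjusted p = 0.088) at 24 h, and the 6 h value was called with the arrays centred on their median. Sirt4, a mitochondrial enzyme, had a log2 fold change of −1.01, SE 0.39, adjusted p = 0.0784 at 12 h, with 131 and 40.0 at 12 h against 189.6 and 147 at 0 h. Sirt6, which acts on histone H3 in the nucleus, was not called, and the experiments went opposite ways at 24 h, with 225 and 227 at 24 h against 177 and 257 at 0 h.

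**Figure D4:**
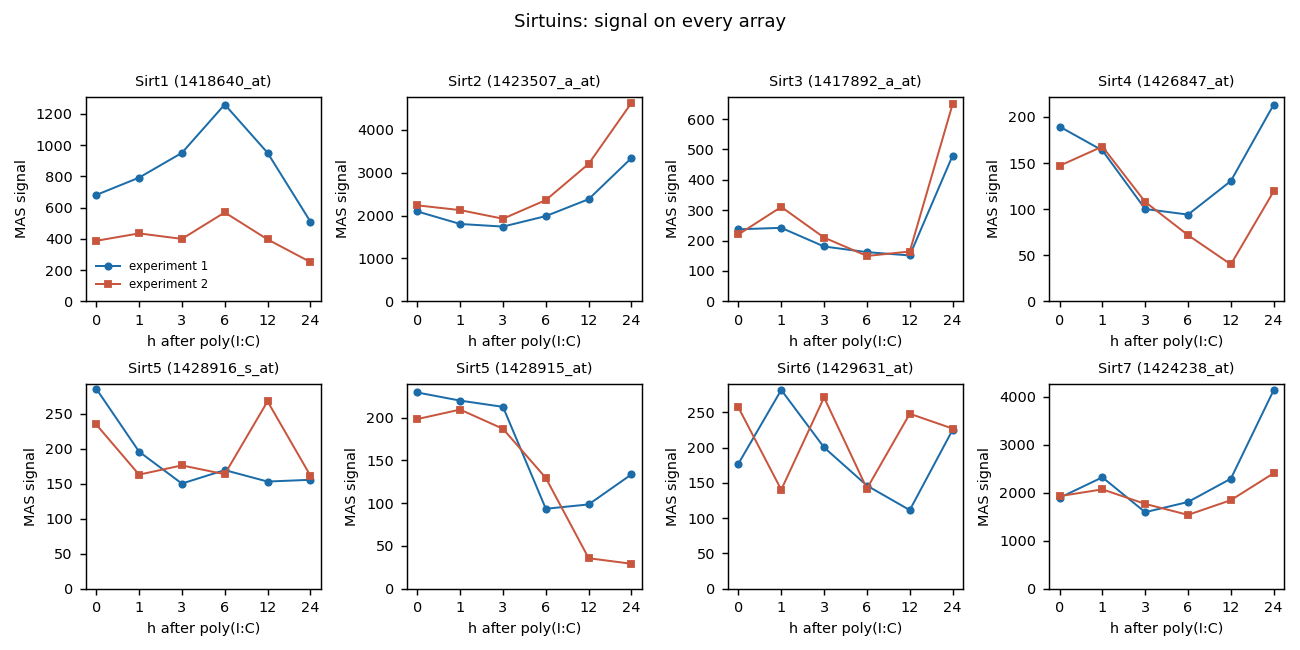
MAS signal on each array (linear axis from 0) of the 8 tested probe sets of the 7 sirtuins against hours after poly(I:C), with a line per experiment. Sirt2, Sirt3 and Sirt7 are highest at 24 h in both experiments, Sirt1 peaks at 6 h, and Sirt6 crosses between the experiments.

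Among the demethylases Kdm2b fell early and strongly, Kdm1a rose at 12 h, Kdm7a fell late, and the other 12 tested genes were not called as the data were deposited. Of 33 probe sets, 1 was called higher (3.03%) and 2 lower (6.06%) at 12 h, beside 9.32% and 18.7% of all tested probe sets. At 24 h 0 were called higher and 4 lower (12.1%), beside 9.23% and 17.5% of all, with class medians of −0.10 and −0.31.

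Kdm2b binds unmethylated CpG islands, removes methyl groups from histone H3 and brings a Polycomb complex to DNA. Kdm2b gave signals of 1595, 1426, 1044, 680.2, 499.5 and 576 in experiment 1 and 1498, 1480, 1184, 749, 403 and 464 in experiment 2, at 0 h and then at 1, 3, 6, 12 and 24 h. The signal declined in both experiments from 1 h to 12 h, and from 3 h on every signal lay under both 0 h signals. It was the only member called at 6 h, 2.14-fold lower than at 0 h (log2 fold change −1.10, SE 0.19, adjusted p = 0.00881), and it was 3.36-fold lower at 12 h (log2 fold change −1.75, SE 0.19, adjusted p = 0.000181) and 2.93-fold lower at 24 h (log2 fold change −1.55, SE 0.19, adjusted p = 0.000393). The late calls passed in every alternative, and the 6 h call was lost without either 0 h array or the 6 h array of experiment 1 (adjusted p = 0.114, 0.0753 and 0.149). The second Kdm2b probe set gave 421 and 379 at 12 h against 942 and 857 at 0 h (log2 fold change −1.14, SE 0.26, adjusted p = 0.0098), a call lost without either 0 h array or the 12 h array of experiment 1 (adjusted p up to 0.0807). Its 24 h signals, 724 and 339.6, were far apart, and its call there (log2 fold change −0.83, SE 0.26, adjusted p = 0.0394) was lost without any one array other than that of experiment 1 at 24 h, with a log2 fold change of −0.35 (adjusted p = 0.194) without that of experiment 2 at 24 h, and without the replicate block (0.119).

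Kdm1a, also called LSD1, takes methyl groups off lysine 4 of histone H3 and is the partner of Hdac1 and Hdac2 in the CoREST complex. In experiment 1, Kdm1a read 1654, 1605, 1665, 2889, 2766 and 1896 at 0 h and the 5 later times, and in experiment 2 it read 1606, 1940, 1826, 2351, 2804 and 2920. Signals were level to 3 h and higher in both experiments at 6 h and 12 h, and at 24 h experiment 1 had come back down while experiment 2 had not. Kdm1a was 1.71-fold higher at 12 h (log2 fold change 0.77, SE 0.21, adjusted p = 0.0219). That call was lost without either 0 h array or either 12 h array (adjusted p from 0.0769 to 0.151) and without the replicate block (0.0628). The second probe set had the same direction (log2 fold change 0.46, SE 0.18, adjusted p = 0.0813) and was not called.

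Kdm7a acts on mono- and dimethylated lysines of histone H3 linked to silencing. It was called at 24 h by 2 probe sets, neither of them its brightest. The first had signals of 1133, 1179, 1390, 1444, 1542 and 754 at 0 h and the 5 later times in experiment 1, and of 688, 804, 834, 858, 1006 and 403 in experiment 2. The signal climbed slowly to 12 h and then fell under its start in both experiments. It was 1.58-fold lower at 24 h than at 0 h (log2 fold change −0.66, SE 0.17, adjusted p = 0.0171) and 2.22-fold lower than at 12 h (log2 fold change −1.15, SE 0.17, adjusted p = 0.0106). The second probe set gave 910.2 and 739 at 24 h and 1423 and 1529 at 12 h, against 1524 and 1257 at 0 h. It was lower at 24 h than at 0 h (log2 fold change −0.74, SE 0.19, adjusted p = 0.017) and than at 12 h (log2 fold change −0.83, SE 0.19, adjusted p = 0.0415).

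The brightest Kdm7a probe set had −0.53 (SE 0.18, adjusted p = 0.0546) at 24 h and −0.64 against 12 h (adjusted p = 0.0801). Both 24 h calls against 0 h were lost without either 0 h array (adjusted p up to 0.123), with the arrays centred on their median (adjusted p = 0.0958 and 0.0867) and without the replicate block (0.374 and 0.0627). The first probe set's call against 12 h was lost without either 12 h array (adjusted p = 0.0712 and 0.0688). That of the second was lost without any one of 10 arrays (both of 0, 1, 3, 6 and 12 h), with adjusted p up to 0.21, and neither held without the replicate block (0.344 and 0.213). At 24 h against 12 h, 1 of 91 members was called higher (1.1%) and 3 lower (3.3%), against 1.87% and 2.25% of all tested probe sets.

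The other demethylases are given by their values at 12 h and 24 h on the log2 scale. Kdm4a, which acts on trimethylated lysines 9 and 36 of histone H3, had the highest of them, 1.03 (SE 0.35, adjusted p = 0.0529) at 12 h and 0.94 (adjusted p = 0.0746) at 24 h. The 6 signals of Kdm4a, at 0 h and the 5 later times, were 289, 662, 843, 1043, 1054 and 854 in experiment 1 and 453, 591, 516, 484, 539 and 587 in experiment 2. The change was larger in experiment 1, the log2 ratios at 12 h being 1.81 in experiment 1 and 0.24 in experiment 2. Kdm4a was called higher at 12 h with a pseudocount of 64, a mean signal of 200 or more, centred arrays, quantile normalisation or the 4 arrays alone, and without the 0 h array of experiment 2 or either 24 h array. With centred arrays or quantile normalisation Kdm4a, Kdm3a and Kdm5b were called higher at 24 h. Kdm4b (−0.06 at both times) and Kdm4c (−0.36 and 0.17) showed no call. In the Kdm3 pair, which acts on lysine 9, Kdm3a had 0.27 and 0.54 and Kdm3b, with 1 of 2 probe sets tested, 0.23 and −0.19. Kdm1b, the relative of Kdm1a, had −0.53 and −0.46.

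Kdm6a and Kdm6b remove the silencing mark from lysine 27 of histone H3, and Kdm6b is known as a gene that lipopolysaccharide switches on in mouse macrophages. Here Kdm6b (3 probe sets, all tested) was not called at any time in the main fit. In a fit of the 4 arrays of 3 h and 0 h alone, Kdm6b was among the genes called lower at 3 h. Its brightest probe set had signals of 703, 892, 371, 343, 333 and 479 at 0 h and the 5 later times in experiment 1, and of 486, 540.3, 328, 429.9, 610.1 and 342 in experiment 2. At 1 h its log2 fold change was 0.24 (SE 0.34), and at 3 h −0.72 (SE 0.34, adjusted p = 0.715). Kdm6a (3 of 4 tested) had −0.17 at 12 h and −0.16 at 24 h. Among the demethylases of lysine 4, Kdm5a (3 of 6 tested) had −0.10 and −0.64, Kdm5b (2 of 4) 0.11 and 0.55, and Kdm5c (6 of 9) 0.30 and −0.36, by the brightest probe set of each.

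At 24 h the experiments went opposite ways for the brightest probe set of Kdm2a (3 of 7 tested), with 1368 in experiment 1 and 432 in experiment 2 at 24 h, against 1250 and 736 at 0 h. Kdm5a was lower in both experiments but unequally so, with 729.6 and 269 at 24 h against 830 and 591 at 0 h. Neither gene was called with all 12 arrays, and leaving out experiment 1's 24 h array gave a lower call at 24 h for both.

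The methyltransferases held the largest rise and several falls. Setd4 rose by all 3 of its probe sets, and Setd6, Setd7, Kmt2c, Kmt2d and Kmt5b were each lower at 12 h or 24 h. Of 35 probe sets, 3 were called higher (8.57%) and 5 lower (14.3%) at 12 h, beside 9.32% and 18.7% of all tested probe sets. At 24 h 3 were called higher (8.57%) and 2 lower (5.71%), beside 9.23% and 17.5% of all. The class medians of −0.23 and −0.10 were close to those of all tested probe sets.

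Setd4 is a SET domain protein whose targets are little studied. Setd4, by its brightest probe set, had signals of 496, 459, 409.6, 669, 1517 and 1297 at 0 h and the 5 later times in experiment 1, and of 609, 756, 704, 1108, 3251 and 3212 in experiment 2. The signals were level to 3 h, were higher at 6 h and stayed high at 12 h and 24 h, and the log2 ratio at 12 h was 1.58 in experiment 1 and 2.38 in experiment 2. It was 3.94-fold higher at 12 h (log2 fold change 1.98, SE 0.24, adjusted p = 0.000277) and 3.63-fold higher at 24 h (log2 fold change 1.86, SE 0.24, adjusted p = 0.000425). The second probe set had 867 and 1773 at 24 h and 1349 and 1813 at 12 h, against 515 and 664 at 0 h, and the third 238 and 437 at 24 h and 286 and 341 at 12 h, against 133 and 144 at 0 h. Both rose at 12 h (log2 fold changes of 1.40 and 1.09, adjusted p = 0.00122 and 0.0188) and at 24 h (1.06 and 1.13, adjusted p = 0.00549 and 0.016).

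The calls on the brightest Setd4 probe set passed in every alternative, as did that of the second at 12 h. The second probe set's call at 24 h was lost without the 0 h array of experiment 2 (adjusted p = 0.0657) and without the replicate block (0.106). The third probe set's calls were lost without either 0 h array (adjusted p up to 0.11 at 12 h and 0.105 at 24 h), without either 12 h array or the replicate block for 12 h (up to 0.1 and 0.0518), and without the 24 h array of experiment 2 for 24 h (0.0915).

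Setd6 is known for methylating the RelA subunit of NF-kB. Setd6 gave signals of 327, 326, 279, 187, 112 and 141 in experiment 1 and 329, 286, 248, 209, 152 and 192 in experiment 2, at 0 h and then at 1, 3, 6, 12 and 24 h. The signal declined in both experiments to a low at 12 h, and from 3 h on it lay under both 0 h signals. Setd6 was 2.35-fold lower at 12 h (log2 fold change −1.23, SE 0.25, adjusted p = 0.00567) and 1.91-fold lower at 24 h (log2 fold change −0.93, SE 0.25, adjusted p = 0.0219). The 12 h call was lost only without the 0 h array of experiment 1 (adjusted p = 0.0565), and the 24 h call without either 0 h array or the 24 h array of experiment 1 (adjusted p up to 0.13), with other scalings (0.0823 and 0.0924) and without the replicate block (0.0584). A dimmer probe set was called at 12 h (log2 fold change −1.29, SE 0.38, adjusted p = 0.0305), a call lost without either array of 0 h or 12 h or the 3 h array of experiment 2 (adjusted p up to 0.208) and without the replicate block (0.112), and had −0.39 at 24 h. The last probe set was too dim to test.

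Setd7 adds a single methyl group to lysine 4 of histone H3 and to several other proteins. In experiment 1, Setd7 read 1737, 1605, 1088, 879, 713 and 1292 at 0 h and the 5 later times, and in experiment 2 it read 1378, 1242, 895, 974, 868 and 605. From 3 h on both experiments lay under both 0 h signals, and at 24 h experiment 1 had turned back up. Setd7 was 1.95-fold lower at 12 h (log2 fold change −0.96, SE 0.28, adjusted p = 0.0294), and its 24 h value was a log2 fold change of −0.79, SE 0.28, adjusted p = 0.0628. The 12 h call was lost without either 0 h array or the 12 h array of experiment 1 (adjusted p from 0.121 to 0.241), the last of these giving a log2 fold change of −0.63, and with the arrays centred on their median (adjusted p = 0.0904) or without the replicate block (0.0906).

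Kmt2c and Kmt2d place a single methyl group on lysine 4 of histone H3 at enhancers. Kmt2c had signals of 729, 631, 562, 489.9, 468 and 527 at 0 h and the 5 later times in experiment 1, and of 376, 345, 332, 196, 133 and 283 in experiment 2. The 6 signals of Kmt2d, at 0 h and the 5 later times, were 485, 597, 441, 535, 367 and 492 in experiment 1 and 327, 278, 274, 232, 122 and 194 in experiment 2. Both genes were lowest at 12 h in both experiments, and experiment 2 lay under experiment 1 throughout. The 12 h and 0 h signals of both genes overlapped across the experiments, so that their calls rest on the change within each experiment. The 12 h change was a log2 fold change of −1.01, SE 0.26, adjusted p = 0.0164 for Kmt2c and of −0.85, SE 0.26, adjusted p = 0.0353 for Kmt2d.

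Without the 12 h array of experiment 2 the change was −0.62 (adjusted p = 0.147) for Kmt2c and −0.58 (adjusted p = 0.239) for Kmt2d. Neither was called without the replicate block (adjusted p = 0.359 and 0.44) or with the arrays centred on their median (0.0798 and 0.146). Leaving out either 0 h array ended the call on Kmt2c (adjusted p up to 0.113), and leaving out the 0 h array of experiment 2 or either array of 1 h or 6 h ended that on Kmt2d (adjusted p up to 0.285). The 3 other Kmt2c probe sets had −0.57, −0.32 and −0.41 at 12 h and were not called. Kmt2d has 1 further probe set, which was too dim to test.

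Kmt5b and Kmt5c extend the methylation of lysine 20 of histone H4 that Kmt5a begins. In experiment 1, Kmt5b read 720, 954, 609, 738, 686 and 384 at 0 h and the 5 later times, and in experiment 2 it read 465, 514, 477, 421, 242 and 147. At 24 h each experiment was at its lowest, and both 24 h signals lay under both 0 h signals. Kmt5b was 2.33-fold lower at 24 h (log2 fold change −1.22, SE 0.27, adjusted p = 0.00872), a call lost without the 0 h array of experiment 2 (adjusted p = 0.0922) and without the replicate block (0.209). Its 3 other tested probe sets (of 5 in all) had −0.65, −0.56 and −0.56 at 24 h and were not called. Kmt5a (3 of 4 tested) had −0.02 at 12 h and −0.04 at 24 h, and Kmt5c had −0.55 (adjusted p = 0.0738) at 12 h and 0.11 at 24 h.

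Setd5, whose own enzyme activity is disputed, had the largest member value at 1 h. Setd5 had signals of 263, 661, 569.9, 595, 454 and 290 at 0 h and the 5 later times in experiment 1, and of 341, 642, 522, 419.5, 483 and 487 in experiment 2. Both 1 h signals lay well over both 0 h signals, and all later signals were lower than the 1 h signal of the same experiment. The 1 h log2 fold change of 1.08 (SE 0.27) had an unadjusted limma p of 0.0026 and was not called after adjustment (adjusted p = 1), while in a fit of the 4 arrays of 1 h and 0 h alone it was the 1 member called. The other tested Setd5 probe sets had −0.10 and 0.01 at 1 h.

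The remaining methyltransferases were not called as deposited, while Kmt2a was called higher at 12 h with centred arrays or quantile normalisation and Kmt2e at 24 h with centred arrays. Kmt2a (2 probe sets tested) had 0.40 at 12 h and 0.37 at 24 h, and Kmt2b had −0.54 and −0.23. Kmt2e (4 of 6 tested), which has no known activity on histones, had −0.21 and 0.45. Setd1a (1 of 2 tested) and Setd1b (2 tested), which put 3 methyl groups on lysine 4 of histone H3 at promoters, had −0.33 and −0.12 at 12 h, and Setd1b was 655 in experiment 1 and 132 in experiment 2 at 24 h, against 637 and 383 at 0 h. Setd2, the enzyme for trimethylated lysine 36, had 0.22 and 0.14. Setd3 (2 tested), which methylates actin, had 0.00 and 0.04.

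**Figure D5:**
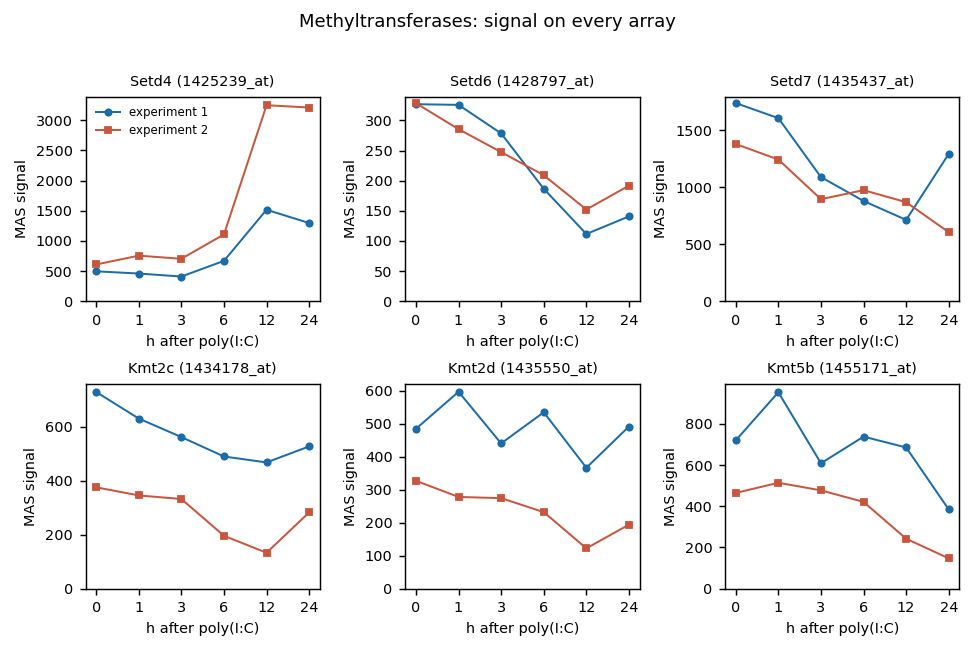
MAS signal on each array (linear axis from 0) of Setd4, Setd6, Setd7, Kmt2c, Kmt2d and Kmt5b against hours after poly(I:C), with a line per experiment. Setd4 is high at 12 h (1517 and 3251) and 24 h (1297 and 3212), Setd6 is lowest at 12 h, and Kmt5b is lowest at 24 h.

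The partners of these enzymes and the other histone modifiers were counted by gene, 1 probe set per gene. Calls on these genes were not checked under the alternatives used for the members. Of 20 tested partners of the deacetylases, 3 rose and 2 fell at 12 h, with 4 rises and 3 falls at 24 h, beside 9.32% higher and 18.7% lower of all tested probe sets at 12 h and 9.23% and 17.5% at 24 h. Sap30, a subunit of the Sin3 complex that holds Hdac1 and Hdac2, had 7406 and 6320 at 3 h against 1769 and 2094 at 0 h. Its log2 fold change was 1.82 (SE 0.3, adjusted p = 0.0138) at 3 h and 2.20 (SE 0.3, adjusted p = 0.000578) at 12 h, so that it was called before any member. Sin3b and Suds3, of the same complex, also rose at 12 h (0.77 and 0.87) and at 24 h (0.92 and 0.83). Not all of the partners rose, within this complex or outside it. Sin3a was not called at either time (0.15 and −0.05), and Mbd3 and Rbbp7 fell at 12 h (−1.62 and −0.71) and at 24 h (−0.79 and −0.70).

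Of the 10 tested core subunits and cofactors that the Kmt2 and Setd1 enzymes work with, 1 rose and 5 fell at 12 h, with 0 rises and 3 falls at 24 h. The 1 that rose, Men1, was just under the threshold (0.67, limma adjusted p = 0.0497). Wdr5, a subunit they share, had 321 and 305 at 24 h and 279 and 330 at 12 h, against 826 and 1005 at 0 h. It fell at 6 h (−1.27, SE 0.21, adjusted p = 0.00566), 12 h (−1.54, SE 0.21, adjusted p = 0.000578) and 24 h (−1.50, SE 0.21, adjusted p = 0.000728). Dpy30 (−1.02) and Hcfc1 (−1.39) fell with it at 12 h, as did Ash2l (−0.79) and Paxip1 (−0.97), which were not called at 24 h. Rbbp5 (−0.27 at 12 h and 0.06 at 24 h), Cxxc1, Ncoa6 and Wdr82 were not called at either time, so not all of these subunits fell. These shares compare with 18.7% of all tested probe sets called lower at 12 h and 17.5% at 24 h.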

How the data were processed

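RNA of each of the 12 samples had been hybridised by the authors to an Affymetrix mouse array, and the intensity values were made by the authors with MAS and deposited on a linear scale, with every array brought to a trimmed mean of 500 (2% of values left off at either end). Each experiment was cultured, hybridised and normalised apart. The number of arrays, 2 per time, limits the precision. Experiment was a term of the main fit, so a constant difference in level between the 2 experiments was taken out. The p-values rest on how far changes over time disagreed between these experiments of 1 mouse each. The limma fit also drew on the spread of the other probe sets.

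Of 45101 probe sets, 64 controls were left out. GEO's platform annotation, which can be old, gave 34945 probe sets 1 gene symbol, 932 several and 9160 none; updating symbols through the Entrez gene ID left the members as they were, and 1 probe set that names Kdm6b with another gene was left out. A pseudocount of 16 was added to each intensity, log2 was taken, and limma 3.58.1 (R 4.3.3) fitted time and experiment (the replicate block) as terms, over all 12 arrays, with an intensity trend. There were 5 residual and 5.24 prior degrees of freedom. The 22519 probe sets with a mean signal at or above the median were tested, with Benjamini-Hochberg adjustment over all of them and a threshold of 0.05. Every change was set against 0 h, or 24 h against 12 h. All comparisons with 0 h share the 0 h arrays. Each mouse gave 1 array per time, so experiment numbers pair the samples, and deviations from the time means correlated within an experiment at 0.26 to 0.66 (median 0.57) over the 15 pairs of times. The fit was tested on simulated data.

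The members and gene lists were chosen with earlier results of these data known. The brightest tested probe set stands for a gene. Values on every array were given for the up to 6 genes per class with the smallest adjusted p among those called. Hdac4, Sirt5 and Kdm7a, called by another probe set only, and Hdac11, Sirt1, Kdm4a, Kdm6b and Setd5 were added after their values were seen. Promoters are RefSeq windows of GRCm38.p6. Alternatives were 2 pseudocounts, 2 filters, 2 scalings, fits without the block, without the trend or on 4 arrays, 1 probe set per gene, and each array left out. Python 3.11.15, numpy 2.4.6, pandas 2.3.3, scipy 1.17.1 and matplotlib 3.10.9 served the rest.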

Additional observations from a re-analysis of the deposited data

Results flagged for a closer look

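Hdac1, Kdm7a and Sirt3 were singled out because their change against 0 h differed between 12 h and 24 h by a test of the difference itself (limma, adjusted over all probe sets tested). Sirt3 was higher at 24 h than at 12 h by 1.73 on the log2 scale (SE 0.24, adjusted p = 0.00829), with 479.7 and 649 at 24 h against 151 and 164 at 12 h. Hdac1 had a log2 difference of −1.15 (SE 0.2, adjusted p = 0.0198), with 3797 and 2001 at 24 h against 7965 and 4739 at 12 h. The Kdm7a probe sets had −1.15 (SE 0.17, adjusted p = 0.0106) and −0.83 (SE 0.19, adjusted p = 0.0415). In the first of them the signals were 754 and 403 at 24 h against 1542 and 1006 at 12 h. Of all 91 tested members, 43 changed in the same direction in both experiments between 12 h and 24 h. None of the 4 differences was called without the replicate block.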

How the results depend on the processing

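Of the 38 calls on single members, 8 passed in every alternative (on Hdac2, Kdm2b and Setd4), 16 passed without the replicate block, 26 with arrays centred on their median, 28 with quantile normalisation, 21 with only the 4 arrays compared, 30 without the intensity trend, 37 with a pseudocount of 1 and 38 with one of 64. None turned its sign. Counts of members called, higher and then lower, were 5 and 12 at 12 h. They were 12 and 6 with arrays centred on their median, 11 and 7 with quantile normalisation, 2 and 6 with no replicate block, and 3 and 6 with 1 probe set per gene. Leaving out each array gave 2 to 10 higher and 4 to 16 lower. At 24 h they were 6 and 10, against 11 and 4 with centred arrays and 1 and 2 with the 4 arrays alone; the lower count was 5 with quantile normalisation, 3 with no replicate block, 6 with no filter and 5 with 1 probe set per gene. Leaving out each array gave 2 to 7 higher and 3 to 20 lower, the 20 without the 24 h array of experiment 1 and the 3 without the 0 h array of experiment 2. For 24 h against 12 h the counts of 1 and 3 were 0 and 0 with no replicate block, the lower count was 1 without the trend, with the 4 arrays alone or with 1 probe set per gene, and leaving out each array gave 0 to 5 higher and 0 to 13 lower. With the 4 arrays alone 1 member was higher at 1 h, 3 were higher and 5 lower at 3 h, and 6 were higher and 5 lower at 6 h. At 6 h, 2 were higher with centred arrays, quantile normalisation or a mean signal of 200 or more, 1 with a pseudocount of 64, and leaving out each array gave 0 to 7 higher and 0 to 7 lower. The median of all tested probe sets at 12 h was −0.23 as deposited, 0.08 centred and −0.09 with quantile normalisation. Of all calls 65% were higher at 6 h (80.8% centred), 33.3% at 12 h (59.6%), 34.6% at 24 h (55.1%) and 45.4% for 24 h against 12 h (33.2%). Over all probe sets, 2098 were higher and 4205 lower at 12 h (1079 and 1936 with no replicate block), and 2078 and 3933 at 24 h (953 and 1671 with no replicate block, 927 and 1438 with the 4 arrays alone). The causes were not tested. Probe sets with a mean signal under 78.4 were not tested.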

Other observations

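The counts that follow are of genes called, beside 9.32% higher and 18.7% lower of all tested probe sets at 12 h and 9.23% and 17.5% at 24 h. Calls on these genes were not checked under the alternatives used for the members. The arginine methyltransferases, which methylate arginine on histones and on RNA-binding proteins, were counted together with Wdr77, a cofactor of Prmt5. This list had 1 of 8 tested genes higher and 6 lower at 12 h, Wdr77 among the lower ones. At 24 h these counts were 0 and 6. The list's medians on the log2 scale were −1.58 at 12 h and −1.17 at 24 h, against −0.23 and −0.19 over all tested probe sets. Prmt3 gave 202 and 85.3 at 24 h and 118 and 50.5 at 12 h, against 978 and 819.9 at 0 h, and fell by 3.27 on the log2 scale at 12 h (SE 0.29, limma adjusted p = 3.82e-05). Prmt5, the main enzyme for symmetric dimethylarginine, and its cofactor Wdr77 fell by 2.21 and 2.94 at 12 h (adjusted p = 0.000125 and 0.000264), and Prmt7 fell by 2.64 (adjusted p = 0.000198). Prmt2 was the one that rose at 12 h (0.59, adjusted p = 0.026).

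Of 9 tested methyltransferases with a SET domain from other families, 1 rose and 5 fell at 12 h, with 1 rise and 2 falls at 24 h. Smyd5 gave 112 and 59.9 at 24 h and 58.3 and 82.0 at 12 h, against 554 and 496 at 0 h, and fell by 2.66 at 12 h (SE 0.3, adjusted p = 0.000203), and Nsd3 rose by 1.09 (adjusted p = 0.00419). Among 5 tested enzymes of the Setdb, Ehmt and related kind that act on lysine 9 of histone H3, Setdb2, known in mice as an interferon-induced gene, had 1337 and 962 at 3 h against 384 and 415 at 0 h, and was called at 3, 6, 12 and 24 h (log2 fold changes of 1.47, 1.80, 2.02 and 1.73). Ehmt2 rose at 12 h (0.74, adjusted p = 0.004) and 24 h (0.43, adjusted p = 0.0481), and Prdm2 fell at 6, 12 and 24 h (−0.88, −0.68 and −1.14). Of 10 tested acetyltransferases Hat1 rose at 12 h (1.36, adjusted p = 0.00069) and 24 h (1.08), while Kat2a and Kat6b fell at 12 h (−1.24 and −1.07). Of 9 tested genes of the Polycomb complex that methylates lysine 27, 1 was higher and 2 lower at 12 h, while 24 h had 0 higher and 2 lower. Jarid2 was higher at 12 h (1.09, adjusted p = 0.00383) and lower at 24 h (−0.64, adjusted p = 0.0442) than at 0 h, and Ezh2 and Eed fell at 12 h (−0.81 and −0.77). Of 11 tested proteins with a JmjC domain outside the Kdm family, 0 rose and 2 fell at 12 h, with 0 rises and 1 fall at 24 h. Of 2 tested peptidylarginine deiminases, Padi2 and Padi4, 0 were called at any time.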
